A study of Mus musculus with 9 samples.

Results

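The 8 genes followed here act upstream of, or beside, the myogenic regulatory factors: the paired-box genes Pax3 and Pax7, the homeobox gene Six4 and its coactivator Eya1, the homeobox gene Pitx3, and the basic helix-loop-helix (bHLH) genes Msc, Tcf3 and Tcf12. They were chosen by name, and 8 of 8 were found by symbol among the 47729 genes of the count table. RNA was sequenced from C2C12 cells, an established mouse myoblast line that fuses into myotubes when serum is lowered. The 3 populations compared all went through CRISPR-Cas9: WT carries a non-targeting sgRNA, Per1KO an edit of the clock gene Per1, and Per2KO an edit of Per2. Each was sampled undifferentiated in 10% FBS (day 0) and again after 3 and 5 days of differentiation under 5% horse serum. There was 1 library for each of the 9 combinations, no label says whether a knockout is a clone or a pool, and replicates of a population on the same day were not analysed here.

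In muscle development, Pax3 and Pax7 mark precursor cells and, with Six4 and its relatives bound to Eya coactivators, act ahead of Myf5 and Myod1. Pitx factors act on the same genes in the limb and in satellite cells, the stem cells of adult muscle. Tcf3 and Tcf12 encode E proteins, the partners with which MyoD and myogenin bind the E-box CANNTG. Msc (musculin, or MyoR) is a bHLH repressor that competes for E proteins and E-boxes, and is known to decline as myoblasts differentiate.

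Every member is a protein-coding gene on the minus strand of GRCm38, the build that the submitters name as mm10. Pax3 (ENSMUSG00000004872) lies at chr1:78101267-78197134, Eya1 (ENSMUSG00000025932) at chr1:14168954-14310235 and Msc (ENSMUSG00000025930) at chr1:14753346-14755992. Pax7 (ENSMUSG00000028736) is at chr4:139737062-139833528, Tcf12 (ENSMUSG00000032228) at chr9:71842688-72111871, Tcf3 (ENSMUSG00000020167) at chr10:80409514-80433647, Six4 (ENSMUSG00000034460) at chr12:73099609-73113456 and Pitx3 (ENSMUSG00000025229) at chr19:46135685-46148326. Where reads of close relatives could be confused was checked on the sequences. Pax3 and Pax7 encode closely similar proteins, but the longest run that their longest transcripts share, shown here because it bears on whether their counts are separate, is 26 bases:

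Pax3 and Pax7: ctggaagtgtccacccctcttggcca

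The E-protein genes Tcf3 and Tcf12 share at most 18 bases:

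Tcf3 and Tcf12: aaccccaaagcagcctgc

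No stretch of 31 bases of Pax7, Pitx3 or Tcf3 occurs in a transcript of another gene, and at most 1.47% of such stretches do in Pax3, Six4, Eya1 and Tcf12. In Msc the share is 29.6%, all of it from Gm9947, a gene on the opposite strand that overlaps the exons of Msc by 539 bases. Whether strand was used in counting is not stated in the sources used here, so reads of the 2 cannot be told apart in that stretch. Gm9947 held 0 to 13.2% as many counts as Msc in the same library. Pitx3 overlaps Elovl3 on the opposite strand by 10 exonic bases.

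Promoter sequences were available in the RefSeq table (GRCm38.p6) for 5 of the 8 members. Those of the E-protein genes and of Pitx3 are shown because these genes were followed together with the factors that bind E-boxes; capitals mark each CANNTG, which reads the same on both strands. Each run stops before the outermost annotated start. Tcf3 is shown for chr10:80433648-80433885, Tcf12 for chr9:72111872-72112069 and Pitx3 for chr19:46148327-46148575, all on the minus strand:

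Tcf3: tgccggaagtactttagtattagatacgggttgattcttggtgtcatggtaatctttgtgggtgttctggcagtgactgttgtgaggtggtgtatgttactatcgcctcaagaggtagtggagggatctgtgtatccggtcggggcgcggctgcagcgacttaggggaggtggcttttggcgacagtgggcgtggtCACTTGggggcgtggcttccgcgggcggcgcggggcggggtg
Tcf12: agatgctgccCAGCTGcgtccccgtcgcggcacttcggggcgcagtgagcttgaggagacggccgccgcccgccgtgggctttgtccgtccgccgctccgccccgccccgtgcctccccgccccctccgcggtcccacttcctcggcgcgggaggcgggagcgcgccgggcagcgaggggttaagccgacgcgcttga
Pitx3: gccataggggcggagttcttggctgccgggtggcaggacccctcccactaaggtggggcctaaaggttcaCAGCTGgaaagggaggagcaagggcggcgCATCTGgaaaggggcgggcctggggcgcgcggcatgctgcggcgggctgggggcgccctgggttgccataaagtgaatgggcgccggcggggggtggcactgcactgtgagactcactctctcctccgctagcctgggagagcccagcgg

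The Tcf3 run held 1 E-box, CACTTG, starting 54 bases before the RefSeq start. The Tcf12 run held 1, CAGCTG, at 240 bases, and the Pitx3 run held 2, CAGCTG at 180 and CATCTG at 151 bases. The E-box CACGTG, bound by clock factors, was in 0 of these 3 runs. Among 32851 RefSeq promoter windows of 250 bases, 66.2% held CANNTG, 13% CAGCTG and 6.02% CACGTG, so a CANNTG match is common. These matches are descriptions of letters and not of binding.

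WT libraries held 5020385 to 6773320 counts and knockouts 41997763 to 48051824, at least 6.2 times as many, and a lane suffix appears in the titles of WT alone. Depth and lane therefore cannot be told apart from genotype in any comparison with WT. Levels are given as CPM, counts scaled to library size after TMM normalisation, with exact Clopper-Pearson 95% intervals that cover counting error only. The share of all genes whose intervals do not overlap between libraries was not counted, for WT or for the knockouts. Intervals that lie apart below therefore describe single libraries only. A count of 0 allows up to 3 counts, or 0.424 to 0.660 CPM in WT and 0.0591 to 0.0731 CPM in the knockouts. Per1 mRNA was at 31 to 35.6 CPM in WT, 20.9 to 32.4 in Per1KO and 16.5 to 32.9 in Per2KO. Per2 was at 9.74 to 20.5, 6.59 to 10.6 and 3.50 to 9.13 CPM in the same order, and mRNA levels do not test for an edit of the gene. On day 0 Per2 was at 3.50 CPM (3.01 to 4.06) in Per2KO and 6.59 CPM (5.89 to 7.35) in Per1KO, and on day 5 at 8.38 CPM (7.52 to 9.31) and 10.6 CPM (9.60 to 11.6), while on day 3 the intervals overlapped. Neither target gene passed between the knockouts across the 9 libraries (adjusted p = 1.00 for each in edgeR). Per2 was lower in Per2KO than in WT (log2 fold change -1.02, adjusted p = 0.0230), while Per1 did not pass in Per1KO (-0.34, adjusted p = 0.310). The labels name whole muscle as tissue. All 7 myoblast markers listed exceeded 10 CPM in at least 1 library, while Pecam1 of endothelium, Ptprc and Adgre1 of leukocytes, Adipoq of fat and Sox10 of Schwann cells had at most 4 counts in any library. The 4 fibro-adipogenic markers (Pdgfra, Col1a1, Dcn, Ly6a) summed to 1100 to 4500 CPM in WT and 234 to 1610 CPM in the knockouts, but did not move together. Col1a1 was at 645 to 3670 CPM in WT and 64.0 to 305 in the knockouts, and Pdgfra was also lower in the knockouts. Dcn and Ly6a were lower in the knockouts on day 0 only. On days 3 and 5 Dcn was at 540 and 603 CPM in WT and 679 to 814 in the knockouts, and Ly6a at 414 and 207 against 434 to 486. The 6 myotube markers summed to 626 to 18300 and 15.7 to 11400 CPM, and myogenin (Myog) was at 124 CPM in WT on day 0 against 5.35 in Per1KO and 2.91 in Per2KO. The part of these differences in the results below was not tested.

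**Figure D1:**
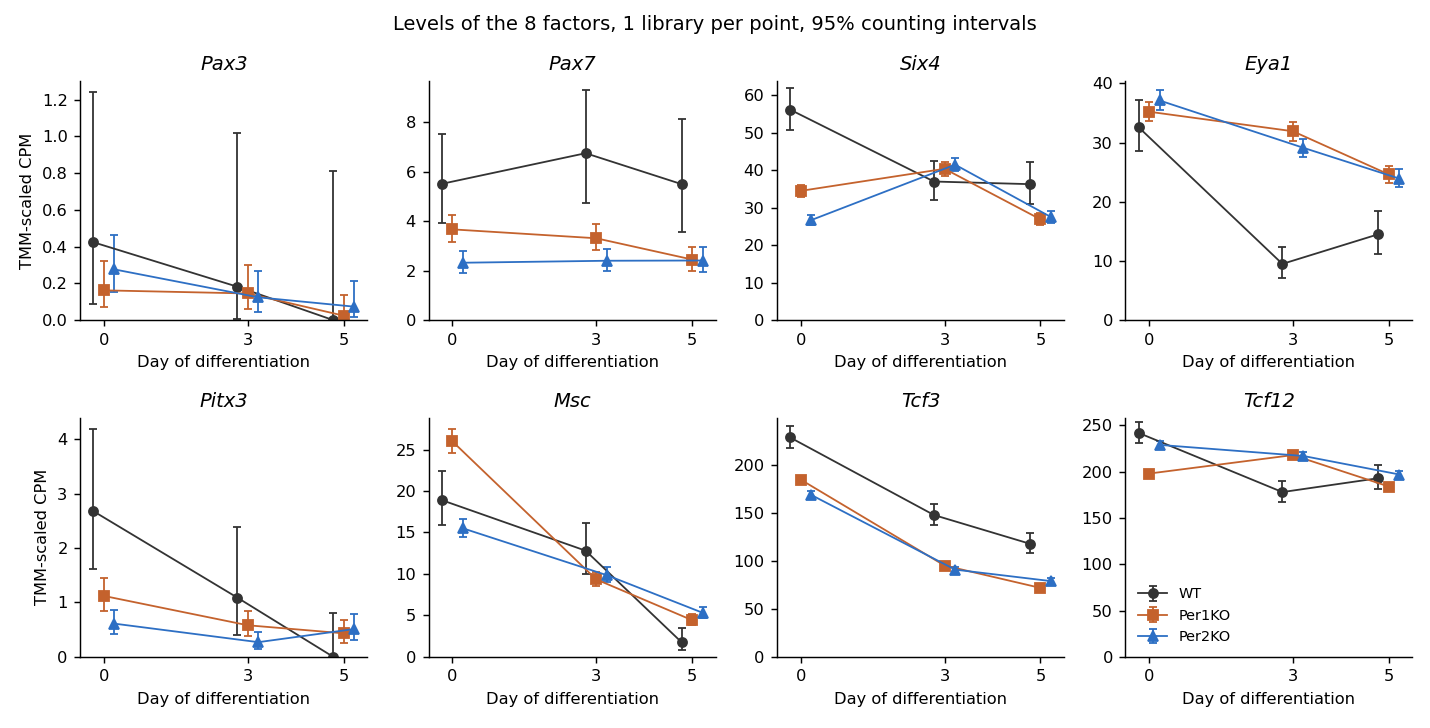
TMM-scaled CPM of the 8 genes (vertical axes, each starting at 0) on days 0, 3 and 5 in WT (circles), Per1KO (squares) and Per2KO (triangles); each point is 1 library and bars are 95% counting intervals. Pax7 and Tcf3 are highest in WT on all 3 days, Eya1 is lowest in WT on days 3 and 5, and Msc and Tcf3 decline in every population.

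Levels per kilobase of annotated exon permit a comparison between genes. The E-protein genes led, with median levels over the 9 libraries of 29.2 CPM per kb for Tcf3 and 12.8 for Tcf12. Msc (3.87), Eya1 (3.72) and Six4 (3.34) came next, close together. Pax7 (0.565), Pitx3 (0.380) and Pax3 (0.0234) were lowest. Of the 8, 7 passed the filter of 1 CPM in at least 3 libraries. Pax3 did not, and Pitx3 passed only through libraries of WT and of day 0.

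Pax3 was close to the detection limit. It had 3, 1 and 0 counts in WT on days 0, 3 and 5. It had 8, 7 and 1 counts in Per1KO and 14, 6 and 3 in Per2KO. The highest level, 0.424 CPM in WT on day 0, had an interval of 0.0874 to 1.24 CPM, and all 8 neighbouring pairs in the order of the 9 libraries overlapped. The knockout libraries, being deeper, bound it more closely: on day 0 it was at 0.162 CPM (0.0700 to 0.320) in Per1KO and 0.276 CPM (0.151 to 0.462) in Per2KO. The filter left Pax3 out of the tests. With no filter on low counts it was called on day 5 against day 0, which made 4 members called there, from the counts given above. Of the 26159 genes then tested, 6490 were called.

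Pax7, the marker of quiescent and activated satellite cells, was low but readily counted and was lower in both knockouts. In WT it was at 5.51, 6.75 and 5.50 CPM on days 0, 3 and 5, from 39, 37 and 25 counts. In Per1KO it was at 3.67, 3.31 and 2.45 CPM, and in Per2KO at 2.32, 2.40 and 2.41 CPM. Every WT library lay above every knockout library; only Per1KO on day 0 (3.16 to 4.25 CPM) had an interval that overlapped that of WT on the same day (3.92 to 7.53). In the additive fit of population and day, Pax7 fell in Per2KO, with a log2 fold change of -1.30 ± 0.21 (SE; edgeR adjusted p = 0.00498), and in Per1KO, with -0.91 ± 0.21 (adjusted p = 0.0217), each lower on 3 of 3 days. Over both knockouts it was -1.11 ± 0.19 (adjusted p = 0.00450). The Per1KO call was lost in 5 of the 9 fits that left out 1 library (WT day 3 or 5, Per1KO day 3 or 5, or Per2KO day 3; adjusted p up to 0.122), whereas the Per2KO call held in all 9. The Per1KO call was also lost with only the 6 libraries compared (0.0869) and with no day term (adjusted p = 0.0739). In the order of the 9 libraries all 8 neighbouring pairs overlapped within counting error. Pax7 did not pass between days. In bulk RNA, fewer cells that express a gene and less of its RNA per cell cannot be told apart, here or below. In Per2KO its levels spanned only 2.32 to 2.41 CPM while that population went from 2.91 to 271 CPM of Myog. Pax7 outnumbered Pax3 in every library, by 8.43-fold (Per2KO day 0) or more in counts where Pax3 was counted at all.

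Six4 binds the MEF3 element of muscle genes and needs an Eya partner to activate them. It was at 56.2, 37.0 and 36.3 CPM in WT on days 0, 3 and 5. In Per1KO it was at 34.5, 40.4 and 26.9 CPM, and in Per2KO at 26.7, 41.5 and 27.5 CPM. WT was highest on day 0, whereas both knockouts were highest on day 3. On day 0 the WT interval (50.8 to 62.0 CPM) lay above those of both knockouts, on day 3 the 3 intervals overlapped, and on day 5 WT (31 to 42.3) was again above. No Six4 comparison passed across the 9 libraries. Its log2 fold change for both knockouts was -0.41 ± 0.19 (adjusted p = 0.141), at -0.67 without WT day 3 (adjusted p = 0.0299) and -0.14 without WT day 0 (adjusted p = 0.563). The value for day 3 against day 0 was 0.11 ± 0.21 (adjusted p = 0.709), with a direction that turned when Per2KO day 0 (-0.12) or day 3 (-0.07) was left out. Fitted on the 6 knockout libraries alone, the day 3 value was 0.42 (adjusted p = 0.0287) and day 5 against day 3 gave -0.59 (adjusted p = 0.0391). Of the 12905 genes tested in that fit, 7479 were called on day 3 against day 0 and 1355 on day 5 against day 3. The test of a different response to differentiation gave 0.75 ± 0.28 (edgeR unadjusted p = 0.0298, adjusted p = 0.162), and without the WT day 5 library 1.03 (adjusted p = 0.0382).

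Eya1, the coactivator and phosphatase partner of Six4, was at like levels in the 3 populations on day 0 and lowest in WT on days 3 and 5. In WT it was at 32.6, 9.49 and 14.5 CPM on days 0, 3 and 5, from 231, 52 and 66 counts. In Per1KO it was at 35.2, 31.9 and 24.6 CPM, and in Per2KO at 37.1, 29.1 and 23.9 CPM. The 3 intervals overlapped on day 0. On day 3 the WT library lay 3.36-fold below Per1KO and 3.06-fold below Per2KO, and on day 5 1.69-fold and 1.65-fold, with no overlap of the WT interval with either knockout. Across populations Eya1 fell by day 5, with a log2 fold change of -0.78 ± 0.27 (adjusted p = 0.0450) and lower values in 3 of 3 populations, a call that was kept in only 2 of the 9 fits that left out 1 library (those without WT day 3 or Per1KO day 3) and reached an adjusted p of 0.145 among the others. Without WT day 0 the value was -0.49 (adjusted p = 0.0647), and without the Per1KO or Per2KO population the adjusted p was 0.121 or 0.147. Against WT, Eya1 was at 0.77 ± 0.25 in both knockouts (unadjusted p = 0.0163, adjusted p = 0.0577), which did not pass. It was 1.19 without WT day 0 (adjusted p = 0.00715) and 0.40 without WT day 3 (adjusted p = 0.123), and DESeq2's Wald test gave 0.79 (adjusted p = 0.0102). The interaction of knockout with differentiation was 1.04 ± 0.33 (unadjusted p = 0.0157, adjusted p = 0.120), and it was 1.53 without WT day 5 (adjusted p = 0.0123) and 0.59 without WT day 3 (adjusted p = 0.141). The ratio of Eya1 to Six4 CPM within a library, free of scaling between libraries, was 0.580, 0.256 and 0.400 in WT on days 0, 3 and 5. It was 1.02, 0.791 and 0.913 in Per1KO and 1.39, 0.700 and 0.871 in Per2KO, so that every knockout library lay above every WT library.

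Relatives of Eya1 gave the wider setting. Among the Eya genes, Eya3 was the most abundant at 43.5 to 68.0 CPM, and Eya2 had at most 1 count. Eya4 was higher on day 5 than on day 0 (log2 fold change 1.61, adjusted p = 8.49e-04). It went from 13.6 to 56.3 CPM in WT, from 12.5 to 36.5 in Per1KO and from 12.2 to 28.7 in Per2KO. Eya1 was lower on day 5 than on day 0 in each population. Between days 3 and 5 in WT, however, both rose, Eya4 from 26.5 to 56.3 CPM and Eya1 from 9.49 to 14.5 CPM.

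**Figure D2:**
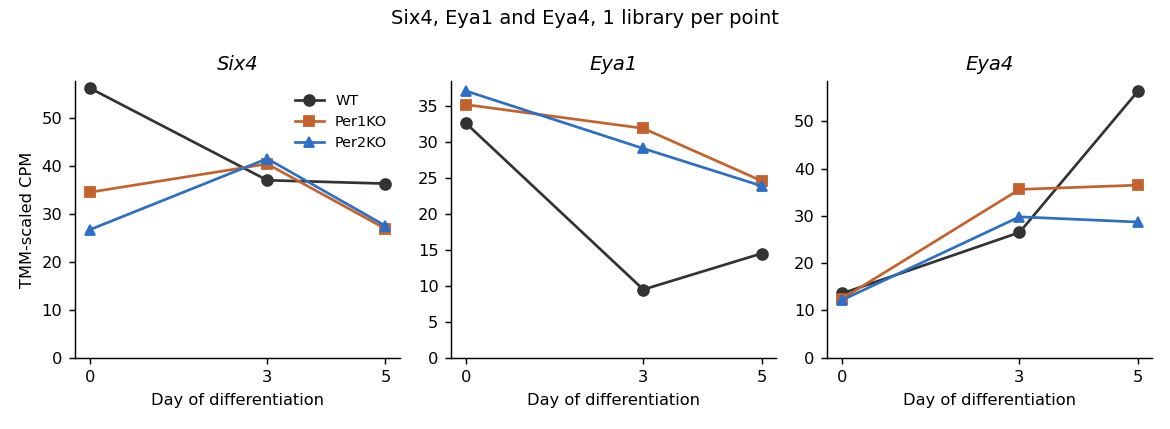
TMM-scaled CPM of Six4, Eya1 and Eya4 (vertical axes, each starting at 0) by day in WT (circles), Per1KO (squares) and Per2KO (triangles), 1 library per point. Six4 is highest in WT on day 0 and in the knockouts on day 3, Eya1 in WT drops to 9.49 CPM on day 3, and Eya4 is higher on days 3 and 5 than on day 0 in all 3 populations.

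Pitx3, a homeobox factor of differentiating muscle, was scarce. It had 19, 6 and 0 counts in WT on days 0, 3 and 5, or 2.68, 1.09 and 0 CPM. It was at 1.12, 0.580 and 0.432 CPM in Per1KO and at 0.610, 0.269 and 0.511 CPM in Per2KO. On day 0 the WT interval (1.62 to 4.19 CPM) lay above those of Per1KO (0.840 to 1.45) and Per2KO (0.415 to 0.866). Within WT the day 5 library was at least 4.07-fold lower than day 0, with 3 counts taken as the floor of that library; the 95% interval of the 0 count reaches 0.811 CPM, and that of day 0 reaches down to 1.62 CPM. That floor, 0.660 CPM, lies above the knockout levels of day 5, so no direction can be given there. Pitx3 did not pass in any of the 8 comparisons over all 9 libraries; its log2 fold change was -1.21 ± 0.55 for day 5 against day 0 (adjusted p = 0.108) and -1.13 ± 0.59 for both knockouts (adjusted p = 0.192). Without WT day 5, the library with 0 counts, it passed for both knockouts (-1.60, adjusted p = 0.0488), for Per2KO (-1.90, adjusted p = 0.0429) and for day 3 against day 0 (-1.08, adjusted p = 0.0494). These calls are not support for a difference. Pitx3 passed the filter only through libraries of WT and of day 0, the sides that were higher in these comparisons. For the knockouts, the library left out was also the WT library without counts. The day 5 value was -0.83 without WT day 5 and -1.99 without Per2KO day 5, and passed in neither fit.

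Msc had the widest range of the members with counts in every library. It was at 18.9, 12.8 and 1.76 CPM in WT on days 0, 3 and 5, from 134, 70 and 8 counts. In Per1KO it was at 26.0, 9.34 and 4.42 CPM, and in Per2KO at 15.5, 9.85 and 5.31 CPM. Each population was lower on day 3 than on day 0 and lower again on day 5, and the day 0 and day 5 intervals did not overlap in any. Between those days the libraries differed 10.8-fold in WT, 5.89-fold in Per1KO and 2.92-fold in Per2KO. Msc fell by day 5 with a log2 fold change of -2.25 ± 0.33 (adjusted p = 0.00121), a call that held in all 9 fits that left out 1 library (-2.66 to -1.99). Day 3 against day 0 was at -0.94 ± 0.31, just short of the threshold (adjusted p = 0.0510), and passed in 6 of 18 alternatives. On day 5 the WT interval (0.760 to 3.47 CPM) was below those of Per1KO (3.80 to 5.11) and Per2KO (4.63 to 6.06), while on day 3 the WT level was the highest of the 3. Msc did not pass against WT in either knockout. Gm9947, the overlapping gene, was also lower on day 5, with 86 against 13 counts in Per1KO and 104 against 18 in Per2KO.

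Tcf3 fell with differentiation and was lower in both knockouts. It was at 229, 148 and 118 CPM in WT on days 0, 3 and 5. In Per1KO it was at 185, 95.3 and 71.9 CPM, and in Per2KO at 169, 91.0 and 79.0 CPM. Each population declined from day to day, WT was the highest of the 3 on every day, and no WT interval overlapped a knockout interval of the same day. The log2 fold change was -0.83 ± 0.12 on day 3 (adjusted p = 0.00169) and -1.14 ± 0.12 on day 5 (adjusted p = 2.13e-04) against day 0, lower in 3 of 3 populations. Without the Per1KO population the day 3 value was -0.77 (adjusted p = 0.0592). Against WT it was -0.55 ± 0.12 in Per1KO (adjusted p = 0.0162) and -0.57 ± 0.12 in Per2KO (adjusted p = 0.0134), lower on 3 of 3 days in each. These calls were lost in some fits that left out 1 library, for Per1KO without WT day 5, Per1KO day 3 or Per1KO day 5 (adjusted p up to 0.117) and for Per2KO without Per2KO day 3 or day 5 (up to 0.0956). The call for both knockouts together (-0.56 ± 0.10, adjusted p = 0.00583) held in all 9 and was lost with no day term (adjusted p = 0.496). With only the 6 libraries compared, the adjusted p was 0.0844 in Per1KO and 0.0720 in Per2KO.

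Tcf12 was the steadiest member, with a highest level 1.36 times its lowest. It was at 242, 178 and 193 CPM in WT on days 0, 3 and 5. In Per1KO it was at 198, 218 and 184 CPM, and in Per2KO at 229, 217 and 197 CPM. The populations crossed: WT was highest on day 0 and lowest on day 3. Tcf12 passed in none of the 8 comparisons; its largest fitted day effect, day 5 against day 0, was -0.22 ± 0.13 (adjusted p = 0.202).

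The 3 E-protein genes were then set side by side as a pool. Per kb of exon, the summed level of Tcf3, Tcf12 and Tcf4, the third such gene, went from 78.8 to 48.5 CPM per kb between days 0 and 5 in WT, from 62.9 to 37.0 in Per1KO and from 61.7 to 39.8 in Per2KO. Tcf3 held 71.9%, 69.8% and 60.2% of it in WT on days 0, 3 and 5. Both the sum and the share rest on exon lengths, 27382 bases for Tcf4, 15529 for Tcf12 and 4039 for Tcf3. Without division by length Tcf4 was at 179, 119 and 188 CPM in WT, 120, 227 and 200 in Per1KO, and 138, 222 and 208 in Per2KO, higher on days 3 and 5 than on day 0 in both knockouts. The Tcf3 share per kb was 72.8%, 51.4% and 48.2% in Per1KO and 68.0%, 50.5% and 49.1% in Per2KO. The ratio of Tcf3 to Tcf12 per kb went from 3.64 to 2.35 in WT, from 3.59 to 1.5 in Per1KO and from 2.85 to 1.54 in Per2KO. With the longest transcript as length, the same ratios were 2.02 to 1.30, 1.99 to 0.834 and 1.58 to 0.858, so which of the 2 genes was more abundant in the differentiated knockouts depended on the length used. On days 3 and 5 each knockout ratio lay below that of WT. A difference in the response of Tcf3 to differentiation was not detected (interaction -0.29 ± 0.17, adjusted p = 0.350).

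**Figure D3:**
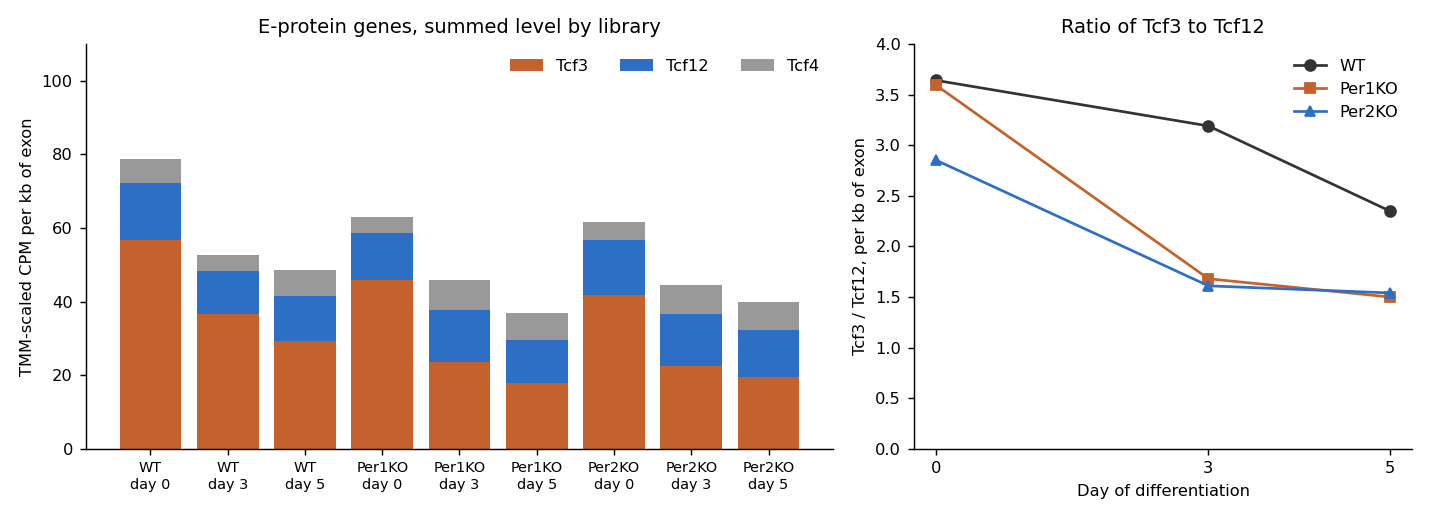
Left, TMM-scaled CPM per kb of exon of Tcf3, Tcf12 and Tcf4 stacked for each of the 9 libraries; right, the ratio of Tcf3 to Tcf12 per kb by day in WT (circles), Per1KO (squares) and Per2KO (triangles). The Tcf3 segment shrinks with time in each population, and on day 5 the ratio is 2.35 in WT against 1.5 and 1.54 in the knockouts.

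Read together, 3 of the 7 members tested were called on day 5 against day 0, Msc, Tcf3 and Eya1, all lower. Of all 13324 genes tested, 46.1% were called in that comparison, 23.2% higher and 22.9% lower. On day 3, 1 member (Tcf3) was called lower, where 35.0% of all genes were called, 18.1% higher and 16.9% lower. The median log2 fold change of the 7 was -0.78 on day 5 and -0.65 on day 3, against -0.01 and -0.01 over all genes tested. Between days 5 and 3 edgeR called 0 members, with 2 (Msc and Tcf3) at an unadjusted p under 0.05 and 1 (Msc) by DESeq2; 1.79% of all genes were called. Against WT, 2 members were called in Per1KO and the same 2 in Per2KO, Pax7 and Tcf3, all lower, against 19.3% and 19.9% of all genes called. The share called lower was 10.1% in Per1KO and 10.6% in Per2KO, and that called higher 9.26% and 9.31%. For both knockouts together these 2 were called, against 26.3% of all genes, 12.2% higher and 14.1% lower. The medians of the 7 in Per1KO, in Per2KO and over both were -0.37, -0.45 and -0.41, against -0.02, -0.01 and -0.01 over all genes. The 2 knockouts are set against the same WT libraries.

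Between Per1KO and Per2KO, edgeR called 0 members and 0 of all genes (0%), with 0 members at an unadjusted p under 0.05 and 0 by DESeq2. The largest fitted differences were 0.57 ± 0.51 for Pitx3 and 0.39 ± 0.19 for Pax7. In single libraries of day 0, Per1KO exceeded Per2KO 1.58-fold for Pax7, 1.68-fold for Msc, 1.29-fold for Six4 and 1.09-fold for Tcf3, with intervals that did not overlap. Tcf12 went the other way, at 198 CPM (194 to 202) in Per1KO and 229 CPM (225 to 233) in Per2KO. These intervals cover counting error only and are narrow at this depth. The share of all genes whose intervals do not overlap between these libraries was not counted, so no result about the members is drawn from them.

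The interaction of knockout with differentiation called 0 members by edgeR, 2 at an unadjusted p under 0.05 (Six4 and Eya1) and 0 by DESeq2, against 4.95% of all genes.

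**Figure D4:**
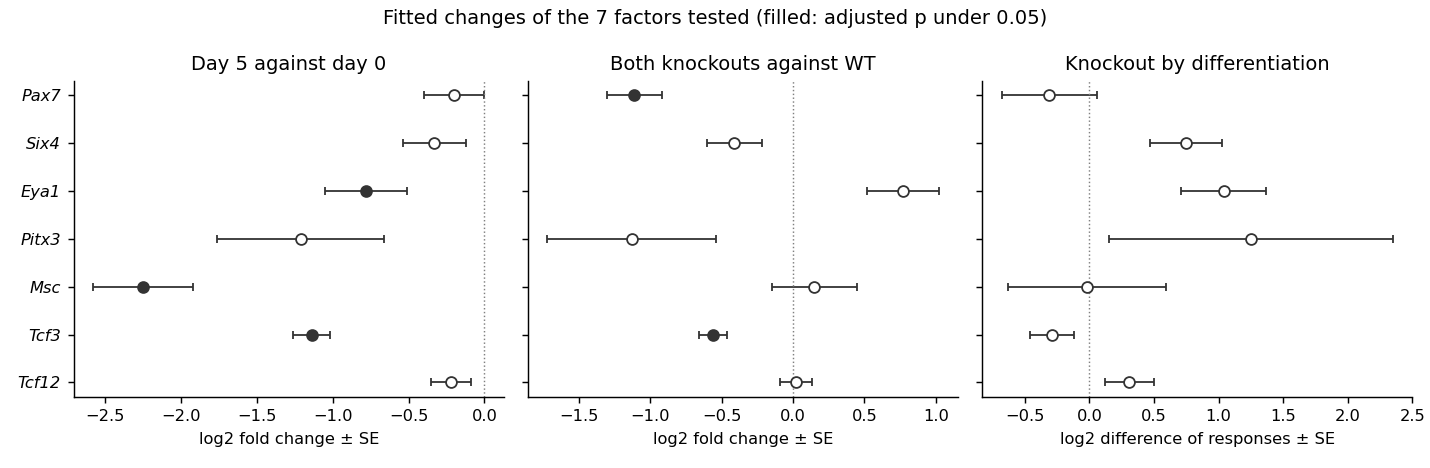
Fitted log2 fold changes with standard errors (horizontal axes) of the 7 members tested for day 5 against day 0, both knockouts against WT, and the difference between the knockout and WT responses to differentiation; filled points have an adjusted p under 0.05. Msc, Tcf3 and Eya1 are filled on day 5, Pax7 and Tcf3 in the knockouts, and none in the right panel.

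Further genes of the network were taken from 3 lists. Of 20 other homeobox, Eya and premyogenic factors, 10 passed the filter. On day 5 against day 0, Eya4 was among those called higher, and 1 was lower, Foxc2, a forkhead factor of somite mesoderm (log2 fold change -1.23, adjusted p = 0.00164). With the 2 knockouts pooled against WT, 0 were called higher (0 at an unadjusted p under 0.05; 12.2% of all genes) and 3 lower (14.1% of all genes), Eya3, Foxc2 and Foxc1, the last with -0.85 (adjusted p = 0.0369). In Per1KO or Per2KO alone 0 of the 10 were called, with 3 lower at an unadjusted p under 0.05 in each. The median was 0.05 on day 5 and -0.33 in the pooled knockouts. Meox2, a somite and limb factor, and Tcf21, a factor of facial muscle, had 0 counts in every library, and Lbx1 had at most 43.

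Of 14 bHLH partners and E-box inhibitors, 11 passed. On day 5, 4 were called higher (Myod1, Myog, Bhlhe41, Zeb1) and 4 lower (Id1, Id2, Id3, Twist2), where 23.2% of all genes were higher and 22.9% lower. Id proteins bind E proteins without binding DNA, and Twist2, which blocks MyoD, had the largest fall of the list (log2 fold change -2.32, adjusted p = 5.43e-04). Myog had the largest rise, 4.99 (adjusted p = 0.00178). With the knockouts pooled, 0 were called higher (0 at an unadjusted p under 0.05), against 12.2% of all genes. In the same comparison 4 were called lower, Myod1, Myog, Snai1 and Zeb1, against 14.1% of all genes, with Myog at -2.99 (adjusted p = 0.00940). Taken singly, Per1KO had 2 called lower (Myog and Snai1), against 10.1% of all genes, and Per2KO 3 (Myog, Snai1 and Id1), against 10.6%. Myod1 and Zeb1 thus passed in the pooled comparison and in neither knockout. In the interaction of knockout with differentiation 2 of the list were called higher, Myog (3.14, adjusted p = 0.00359) and Bhlhe41, and 0 lower. The shares of all genes were 3.50% and 1.45%. Myog was at 124, 868 and 1060 CPM in WT, 5.35, 262 and 351 in Per1KO and 2.91, 226 and 271 in Per2KO. Its gap to WT was thus widest on day 0, and the additive 4.99 and -2.99 average over unlike populations and days. Id3, called in the same comparison as Msc and Tcf3, went from 40.1 to 7.04 CPM in WT, from 42.3 to 11.4 in Per1KO and from 22.7 to 13.5 in Per2KO.

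Of 9 genes known as targets of Pax3, Pax7 or Six4 and its relatives, 9 passed, and Myog, Myf5 and Id3 are on the previous list too. On day 5, 5 were called higher (Fgfr4, Itm2a, Cxcr4, Myog, Slc12a2) and 2 lower (Met and Id3), against the same 23.2% and 22.9% of all genes, with Met, the receptor for hepatocyte growth factor and a Pax3 target, at -1.83 (adjusted p = 3.50e-05). Both in the pooled comparison and in each knockout 2 were called lower, Myog and Fgfr4, and 0 higher (0 at an unadjusted p under 0.05). The shares of all genes called lower were 14.1% pooled, 10.1% in Per1KO and 10.6% in Per2KO. Those called higher were 12.2%, 9.26% and 9.31%. Fgfr4, a receptor gene bound by Pax3, was at 2.54, 9.49 and 8.58 CPM in WT, at 0.710, 3.52 and 3.89 in Per1KO and at 0.354, 3.00 and 3.78 in Per2KO (log2 fold change -1.58, adjusted p = 0.00358). Like Pax7 it was lower in the knockouts on each day, but it rose by day 5 (2.57, adjusted p = 3.75e-04). Myf5, another target, did not pass in the knockouts (0.09, adjusted p = 0.763). The list median was 1.64 on day 5 and -0.03 in the knockouts.

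The genes whose profile over the 9 libraries was most like each member were found among the 9586 tested genes averaging 10 CPM or more, by Pearson correlation of log2 CPM. All points share the libraries, their depths and the same scaling, and the values are descriptions. Tcf3 was closest to Limd2 (r = 0.994), Stk10 (0.991) and Hnrnpa1 (0.990). Msc was closest to Mum1l1 (0.993) and also to Dck (0.985), a nucleoside kinase that went from as much as 73.8 to as little as 8.36 CPM. Six4 was closest to Phf13 (0.978), which kept r = 0.995 over the 6 knockout libraries, then to Gatad2a (0.952) and Mapk7 (0.945). Eya1 was closest to Apcdd1 (0.975), an inhibitor of Wnt signalling, and to Sipa1l3 (0.974). Pitx3 was closest to Bcar3 (0.973), Mgst3 (0.966) and Pja1 (0.964), and Pax7 to Gps1 (0.963), Gm6368 (0.962) and Slc44a1 (0.956). Tcf12 was closest to Eef2k (0.952), Plxna3 (0.944) and Pcdh19 (0.943). Over the 6 knockout libraries alone, r between Pax7 and Gps1 was 0.744 and between Pitx3 and Pja1 0.698, lower than over all 9.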

How the data were processed

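The deposited table holds counts of reads by Ensembl gene, unnormalised, with 1 column for each of the 9 libraries, and 47224 of 47729 identifiers matched a symbol. Per the labels' protocols, polyadenylated RNA was made into TruSeq libraries and sequenced as single reads. Per the submitters' processing notes, CASAVA 1.8, HISAT2 2.1.0 and build mm10 were used; the counting program, annotation and strand setting are not given in the sources used here. Gene positions and exon lengths came from GENCODE M21 (GRCm38).

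The 13324 genes that reached 1 CPM in 3 or more libraries were tested with edgeR 4.0.16 (R 4.3.3, limma 3.58.1): TMM scaling, robust quasi-likelihood F tests, and Benjamini-Hochberg adjustment over all tested genes at 0.05. Population and day were additive factors over all 9 libraries (4 residual degrees of freedom), so days stand in for replicates of a population and populations for replicates of a day; p-values speak of these populations only. The interaction was 1 term, either knockout by days 3 and 5 (3 residual degrees of freedom). Scripts were tested on simulated data. Differences of single libraries carry no p. DESeq2 1.42.0, other scalings, filters and sample sets were alternatives. The named genes were the 8 members, the 3 genes most like each, and the called list members with the largest rise and fall; other list genes were picked with their values in view. Some genes that these rules name are not reported here. Members and lists were chosen with earlier results of these data known.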

Additional observations from a re-analysis of the deposited data

How the results depend on the processing

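For the 37 member changes examined, 586 refits kept direction and side of the threshold in 530, lost a call in 28, gained one in 25 and turned direction in 3. Those 3 were Six4 on day 3 against day 0, at -0.12 without Per2KO day 0, -0.07 without Per2KO day 3 and -0.16 without the Per2KO population; the other fits without 1 library reached 0.36. The number of members called on day 3 against day 0 was 1. It was 2 with TMM from protein-coding genes, 3 with DESeq2, 3 without the WT libraries and 0 without Per1KO. Calls over all genes numbered 4664, and 4657, 5237, 7479 and 1091 in the same order of settings. On day 5 against day 3, 0 members were called, but 1 with DESeq2 and 1 without WT. All genes called there went from 238 to 728 and 1355. Per1KO against WT gave 2 members, but 1 with a filter of 10 CPM, which removes Pax7. It gave 0 with only the 6 libraries compared and 0 with no day term. All genes called went from 2575 to 1564 (of 9910 then tested), 1362 and 797 under these settings. Per2KO against WT gave 2 members, but 1 under each of these 3 settings. All genes called went from 2652 to 1705, 1229 and 825. Both knockouts gave 2 members, but 1 with the 10 CPM filter and 1 with no day term (3510 genes against 2379 and 1155). They gave 3, adding Eya1, with TMM from protein-coding genes, DESeq2 or no filter (3549, 4197 and 3658 genes). Leaving out 1 library at a time gave 1 to 3 members on day 3, 2 to 3 on day 5 and 0 to 0 for day 5 against day 3. All genes called ranged over 2157 to 6246, 3713 to 7351 and 0 to 735. The same fits gave 0 to 3 members for Per1KO, 1 to 3 for Per2KO and 2 to 3 for both knockouts. All genes called ranged over 1167 to 3461, 1157 to 3594 and 2150 to 4052. Between knockouts 0 to 0 members were called. The interaction, which could not be fitted without WT day 0, gave 0 to 2 members and 49 to 2179 of all genes. Apart from the effect of the filter, the cause of these changes was not tested. No paired analysis was possible because the labels carry no replicate numbers; the day term compares populations within days. A population left out makes the others carry the spread. Depth limits Pax3, Pitx3 and, in WT on day 5, Msc, and the WT libraries most.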
